A study of Mus musculus with 3 samples.

Results

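Interleukin receptor genes were taken as the autosomal protein-coding mouse genes whose symbol is Il, a number and r. The rule found 36 of the 20560 autosomal protein-coding genes in the RefSeq table of GRCm38.p6, the assembly with the chromosomes of mm10. Of these, 35 encode receptor chains or proteins of receptor families, and the other is Il1rn, the soluble antagonist that occupies the IL-1 receptor. The data were intervals enriched for 5-hydroxymethylcytosine (5hmC), the oxidised form of 5-methylcytosine, in mouse bone marrow. Each interval is called a peak here.

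The labels name 3 samples: normal bone marrow, and a pair of samples of an acute myeloid leukaemia called NIDF-AML. That leukaemia was induced by 4 alterations acting together, namely FLT3-ITD, DNMT3A/R882H, the NPM1 mutant NPMc and IDH2/R140Q. The labels give no strain, age or vector. Peak lists of both leukaemia samples were analysed, and all 223267 lines were the same in both. They were counted as 1 list of 208468 distinct peaks. Both headers name the library of index 4 as the treatment, with index 5 or index 6 as the control. The sources used here do not tie an index to a sample, so the values below belong to the index 4 library, which may be leukaemia or normal marrow. What the control libraries were is not given either, and they may be other 5hmC samples of this series. No comparison of leukaemia with normal marrow was made, and no value has a replicate. The list carries no height or score, and its read depth is unknown.

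Interleukins are secreted signals between blood cells, and each acts through a receptor of 1 or more membrane chains. Most chains belong to the cytokine receptor families, which signal through Jak kinases and Stat factors. The IL-1 receptor family signals instead through Myd88 and Irak proteins, and the IL-17 receptors through the adaptor Act1, encoded by Traf3ip2. TET enzymes make 5hmC from 5-methylcytosine, mainly where C is followed by G. In blood cells, as in other tissues, this base is known to be common in the bodies of transcribed genes and at enhancers. It is scarce at unmethylated, CG-rich gene starts.

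Of the 29 receptor genes with promoter sequence in the RefSeq table, 4 had a peak that overlapped a promoter window, here 250 bases before to 50 bases after a listed gene start. The same held for 5.4% of the 16457 autosomal genes with such a window. The 4 were Il9r, Il18r1, Il20rb and Il22ra1. In Il9r and Il18r1 the window belonged to a listed start inside the gene span. For Il20rb (chr9:100486474-100486723, minus strand) and Il22ra1 (chr4:135727909-135728158, plus strand) the 250 bases before the start are shown, because their peak lies just before the gene span. They are from RefSeq GRCm38.p6, 5′ to 3′, and capitals mark the bases inside the listed peak.
Il20rb: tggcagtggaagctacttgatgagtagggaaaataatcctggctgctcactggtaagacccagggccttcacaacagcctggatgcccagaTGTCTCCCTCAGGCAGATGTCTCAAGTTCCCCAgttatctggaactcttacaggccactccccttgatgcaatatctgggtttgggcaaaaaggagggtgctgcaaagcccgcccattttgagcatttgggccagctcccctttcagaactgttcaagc
Il22ra1: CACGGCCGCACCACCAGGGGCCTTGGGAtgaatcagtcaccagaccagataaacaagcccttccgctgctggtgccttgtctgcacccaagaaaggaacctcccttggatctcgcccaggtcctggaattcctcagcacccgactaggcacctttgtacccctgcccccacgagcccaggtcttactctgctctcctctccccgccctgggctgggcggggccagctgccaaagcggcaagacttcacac
The Il20rb peak covered 33 bases with no CG, in a stretch that holds 1 CG in all. The Il22ra1 peak reached 28 bases into the stretch, and these hold 2 of its 9 CG. A peak marks enriched fragments, which are longer than the interval, and positions in the list are rounded (to steps of up to 16 bp at these genes), so the modified C need not lie inside the capitals.

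The other 4 sequences have no listed peak. Il6ra (chr3:89913197-89913446, minus strand) stands for a gene with many peaks and Il23r (chr6:67491856-67492105, minus strand) for the gene with none. Il11ra1 (chr4:41760193-41760442, plus strand) and Il11ra2 (chr4:42665764-42666013, minus strand) are near copies of a gene. Il6ra and Il23r were chosen after their values were seen. Capitals mark every CG.
Il6ra: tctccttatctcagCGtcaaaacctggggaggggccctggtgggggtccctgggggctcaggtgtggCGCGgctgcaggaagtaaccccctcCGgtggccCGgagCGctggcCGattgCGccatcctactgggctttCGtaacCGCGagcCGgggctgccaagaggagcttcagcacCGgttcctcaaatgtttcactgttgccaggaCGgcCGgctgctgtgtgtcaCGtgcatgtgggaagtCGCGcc
Il23r: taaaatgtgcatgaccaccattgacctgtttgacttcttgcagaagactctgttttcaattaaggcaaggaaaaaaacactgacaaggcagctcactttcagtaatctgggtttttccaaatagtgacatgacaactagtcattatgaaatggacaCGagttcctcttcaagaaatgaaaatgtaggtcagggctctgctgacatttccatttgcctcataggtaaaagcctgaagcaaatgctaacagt
Il11ra1: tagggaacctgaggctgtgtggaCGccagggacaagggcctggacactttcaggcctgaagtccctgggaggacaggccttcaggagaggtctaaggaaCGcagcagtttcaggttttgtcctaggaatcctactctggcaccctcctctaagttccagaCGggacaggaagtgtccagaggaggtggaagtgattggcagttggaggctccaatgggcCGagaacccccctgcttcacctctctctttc
Il11ra2: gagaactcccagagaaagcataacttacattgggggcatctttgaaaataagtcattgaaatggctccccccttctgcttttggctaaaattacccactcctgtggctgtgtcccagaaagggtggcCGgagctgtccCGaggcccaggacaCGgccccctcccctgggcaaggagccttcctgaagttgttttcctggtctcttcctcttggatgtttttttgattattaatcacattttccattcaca
The Il6ra stretch holds 18 CG, that of Il11ra1 4, that of Il11ra2 3 and that of Il23r 1. Promoter windows of receptor genes were poorer in CG than those of most genes. Their median was 6 CG per window over 37 windows, against 14 over the 20085 windows of all autosomal genes. At least 1 CG was present in all 37 windows, and in 95.6% of all windows. CG is its own reverse complement, so both strands give the same count.

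Peaks were common at interleukin receptor genes. Of the 36 genes, 35 (97.2%) had at least 1 peak with its midpoint in the gene span or within 5 kb, against 76.1% of all autosomal protein-coding genes. A peak inside the span was found at 34, against 69.5% of all genes. Density was computed as peaks per kb of the span plus both flanks. The median of the receptor genes was 0.258 peaks per kb (quartiles 0.130 and 0.477), or 2.10 times the 0.123 of all genes. Above the median of all genes lay 27 (75%), against 50% by definition. Among the top 10% of all genes, which begin at 0.536 peaks per kb, were 8 (22.2%). Receptor genes were also longer, with a median span of 28.8 kb against 17.6 kb. Set against genes whose span was within 1.2 times their own, 23 of the 36 had more peaks than the median. The same share over all genes was not computed, and ties with the median mean that it need not be 50%. Genes are not replicates, so these shares describe this list and were not tested.

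**Figure D1:**
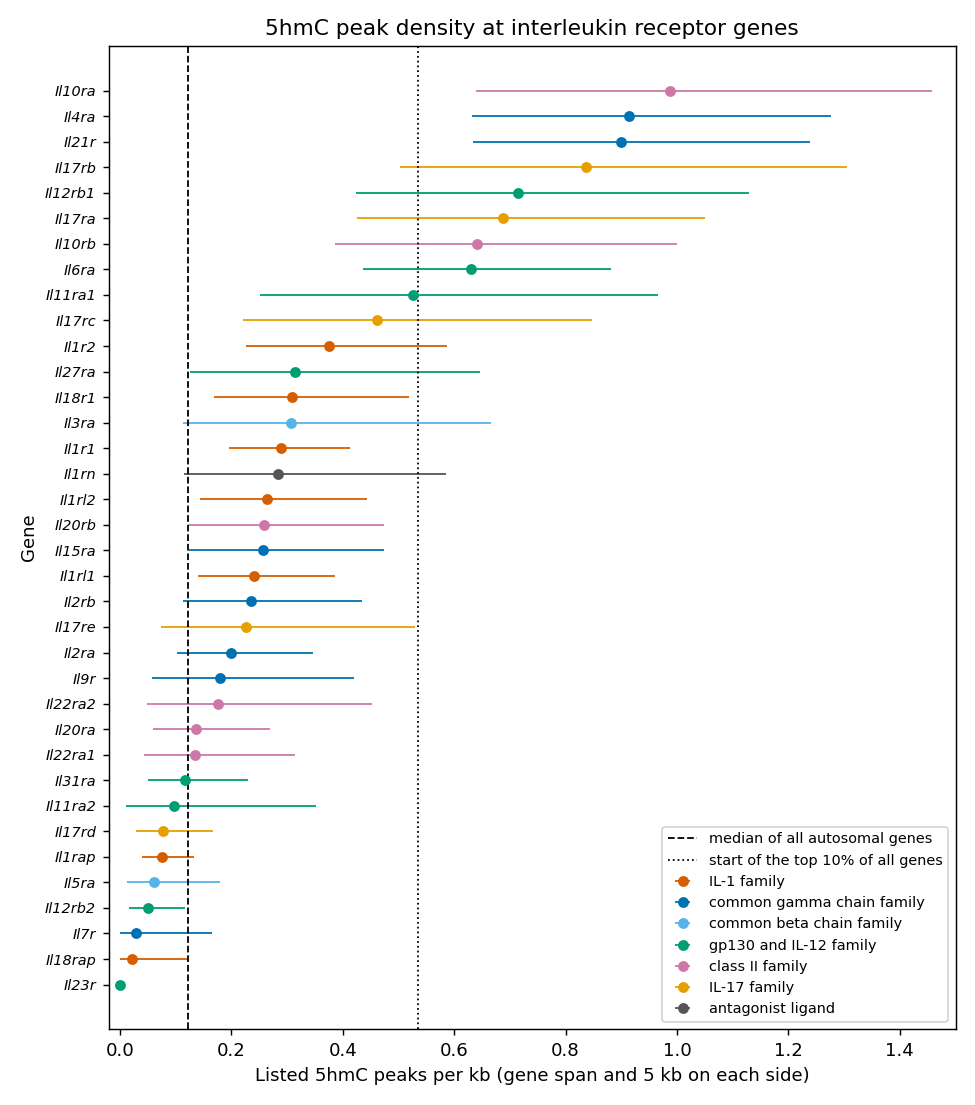
Listed 5hmC peaks per kb at the 36 genes, ordered by density and coloured by receptor family. Bars are exact Poisson 95% intervals of the count and cover counting error only, with none drawn for Il23r at 0. Il10ra, Il4ra and Il21r stand highest, and 9 genes lie left of the dashed median of all autosomal genes.

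The receptor chains for IL-10, IL-4 and IL-21 had the most peaks per kb. Il10ra, the ligand-binding chain for the anti-inflammatory IL-10, had 25 peaks (exact Poisson 95% interval 16.2 to 36.9) at chromosome 9 (45253837 to 45269149). This was 0.988 per kb, rank 65 of all 20560 genes. Its span held 13 of these peaks and the flanks 12 (4 and 8), and 7 lay within 5 kb of BC049352. Its place at the top rests on the flanks: with the span alone it had 0.849 per kb, below Il4ra (1.03), Il21r (0.867), Il17rb (0.864) and Il12rb1 (0.856). Without the shared peaks it had 0.711 per kb, below Il4ra (0.914) and Il21r (0.802). Il4ra, the chain shared by the IL-4 and IL-13 receptors, had 34 (23.5 to 47.5) at chromosome 7 (125552271 to 125579474), or 0.914 per kb. Its neighbour Il21r, the receptor chain for the lymphocyte growth signal IL-21, had 37 (26.1 to 51.0) at 125603252 to 125634397, or 0.899 per kb. All these lay above 99% of genes by density (99.7%, 99.3% and 99.2%). Genes within 1.2 times their span had medians of 5, 6 and 6 peaks. Every interval of a count here treats peaks as independent and covers counting error only.

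The next 5 genes also stood among the top 10% of all genes. Il17rb, the chain for IL-17B and IL-25, had 19 peaks (11.4 to 29.7) at chromosome 14 (29996168 to 30008896), or 0.836 per kb. Of these, 16 lay within 5 kb of its neighbours Chdh (10) and Actr8 (6), so few belong to Il17rb alone. Il12rb1, the chain shared by the IL-12 and IL-23 receptors, had 18 (10.7 to 28.4) at chromosome 8 (70808360 to 70823542), or 0.715 per kb, and shared 9 with Mast3. Il17ra, the chain common to the IL-17 receptors, had 21 (13.0 to 32.1) at chromosome 6 (120463181 to 120483731), or 0.687 per kb, and shared 3 with Tmem121b. Il10rb, the common chain of the IL-10 and related receptors, had 19 (11.4 to 29.7) at chromosome 16 (91406157 to 91425834), or 0.640 per kb, and shared 7 with Ifnar2. Il6ra, the IL-6 binding chain, had 34 (23.5 to 47.5) over its 43.9 kb on chromosome 3 (89869324 to 89913196), or 0.631 per kb. None of the Il6ra or Il4ra peaks lay within 5 kb of another protein-coding gene.

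Il11ra1 and Il17rc completed the 10 densest. Il11ra1, the IL-11 binding chain, had 10 peaks (4.80 to 18.4) at chromosome 4 (41760443 to 41769473), or 0.525 per kb, and 9 of them were shared with Galt (5) or Ccl27a (4). Il17rc, the partner of Il17ra for IL-17A and IL-17F, had 10 (4.80 to 18.4) at chromosome 6 (113471455 to 113483163), or 0.461 per kb. Of these, 9 were shared with Creld1 (6) or Il17re (3), and with unshared peaks alone Il17rc had 0.0461 per kb. Il11ra2, the near copy of Il11ra1, had 2 peaks (0.242 to 7.22) at chromosome 4 (42655275 to 42665763), or 0.0976 per kb. The placement of reads that match both copies was not given in the sources used here. How peaks divide between Il11ra1 and Il11ra2 is therefore uncertain. Over the 35 genes with a peak, the intervals of neighbours in the order of density overlapped throughout.

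Il23r had no listed peak. The gene, for the chain that binds IL-23 on some T and innate lymphocytes, spans 68.9 kb of chromosome 6 (67422932 to 67491855), where the median over genes of similar length was 9 peaks. Il18rap and Il7r had 1 each. The peak of Il18rap, the signalling chain of the IL-18 receptor, lay at -1246 bp from its start (40514096 to 40514136 on chromosome 1), and its 36.3 kb span held none. The peak of Il7r, the IL-7 receptor of lymphoid progenitors and T cells, lay near the far end of the gene (9508236 to 9508326 on chromosome 15), 21595 bp past its start. Over genes of similar length the median was 6 peaks for Il18rap and 5 for Il7r.

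The families were spread over the whole range. The 5 members of the IL-17 receptor family found in the table ran from 0.0766 peaks per kb at Il17rd to 0.836 at Il17rb. Their median, 0.461, is the value of Il17rc, and with unshared peaks alone the median was 0.0907. Il17rd, an inhibitor of fibroblast growth factor signalling, had 6 peaks over 68.3 kb. Il17re, the IL-17C receptor, had 5, of which 3 were shared with Il17rc. The 6 class II chains had a median of 0.217, and all 6 were above the median of all genes. In that family Il20rb had 10 peaks, Il20ra 8, Il22ra1 5 and Il22ra2, a soluble IL-22 decoy, 4.

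The 7 chains that pair with the common gamma chain had a median of 0.236 peaks per kb, from 0.0296 at Il7r to 0.914 at Il4ra. Il2ra, the high-affinity IL-2 chain, had 12 peaks, Il2rb and Il15ra 10 each and Il9r, for the mast cell and T cell factor IL-9, 5. The 8 chains of the gp130 and IL-12 family had a median of 0.215, with 4 above the median of all genes, and of 0.0507 with unshared peaks alone. Beside those above, Il27ra had 7 peaks, of which 6 lay within 5 kb of Rln3, Il31ra, the itch cytokine receptor, had 8 and Il12rb2 5. The chains that pair with the common beta chain are the myeloid receptors Il3ra, with 6 peaks in a 9.58 kb gene, and Il5ra, the eosinophil receptor, with 3 over 38.7 kb. Il1rn had 7 peaks, or 0.284 per kb.

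The 7 genes of the IL-1 receptor family had a median of 0.264 peaks per kb, and none was among the top 10% of all genes. Il1r2, a decoy receptor of neutrophils and other myeloid cells, had 19 peaks, or 0.376 per kb. The signalling receptor Il1r1 had 30, or 0.289 per kb. Il1rl1, the IL-33 receptor of mast cells and innate lymphocytes, had 17, and the IL-36 receptor Il1rl2 and the IL-18 binding chain Il18r1 had 14 each. Il1rap, the signalling partner of Il1r1, Il1rl1 and Il1rl2, had 12 over 149 kb, or 0.0757 per kb. Its longest stretch with no peak was 64.4 kb.

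Of these genes, 6 lie side by side on chromosome 1 (40084692 to 40551707), with no other protein-coding gene between them. The 467 kb held 107 peaks, or 0.229 per kb. Il1r2 held 17 in its span and Il1r1 28, while the 97.2 kb between them held 7 and contained a stretch of 50.7 kb with none. The 8.39 kb between Il1r1 and Il1rl2 held 6 peaks, or 0.715 per kb, the highest density of any piece. Il1rl2 held 8, the 37.3 kb after it 15, Il1rl1 12, and Il18r1 11. The peaks stopped before Il18rap: the 14.5 kb ahead of it held 3 and its span held 0.

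**Figure D2:**
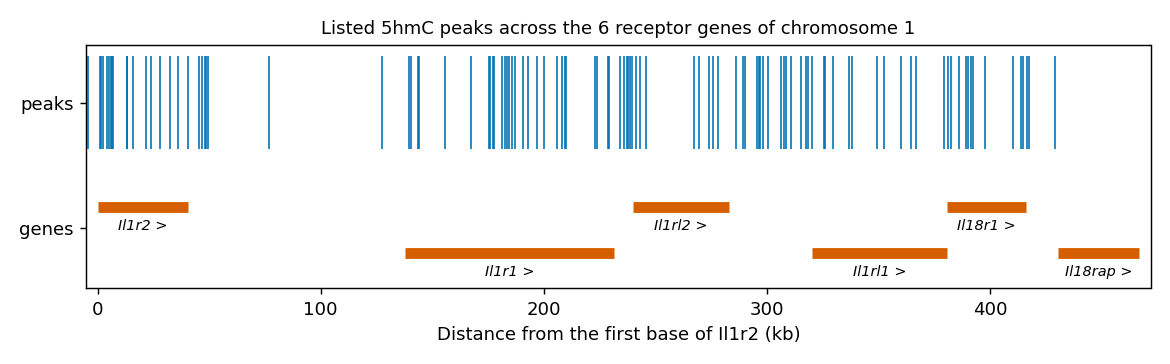
Each blue line is a listed 5hmC peak and each bar a gene span, along the distance in kb from the first base of Il1r2, with arrowheads for the strand. Peaks run from Il1r2 to Il18r1 with a thin stretch after Il1r2, and none falls in Il18rap.

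The pair Il4ra and Il21r was filled with peaks throughout. From the start of Il4ra to the end of Il21r there were 71 peaks in 82.1 kb, or 0.865 per kb. The 23.8 kb between the genes held 16, and the longest stretch without a peak was 5.10 kb. Il12rb2 and Il23r, also neighbours, had 4 peaks in 206 kb, or 0.0194 per kb. All 4 lay in Il12rb2, the IL-12 specific chain, and the last 132 kb (67359864 to 67491855), including all of Il23r, held none. Serbp1 overlaps the low-coordinate end of Il12rb2, away from that stretch, and is within 5 kb of 2 of the 5 peaks counted for Il12rb2.

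**Figure D3:**
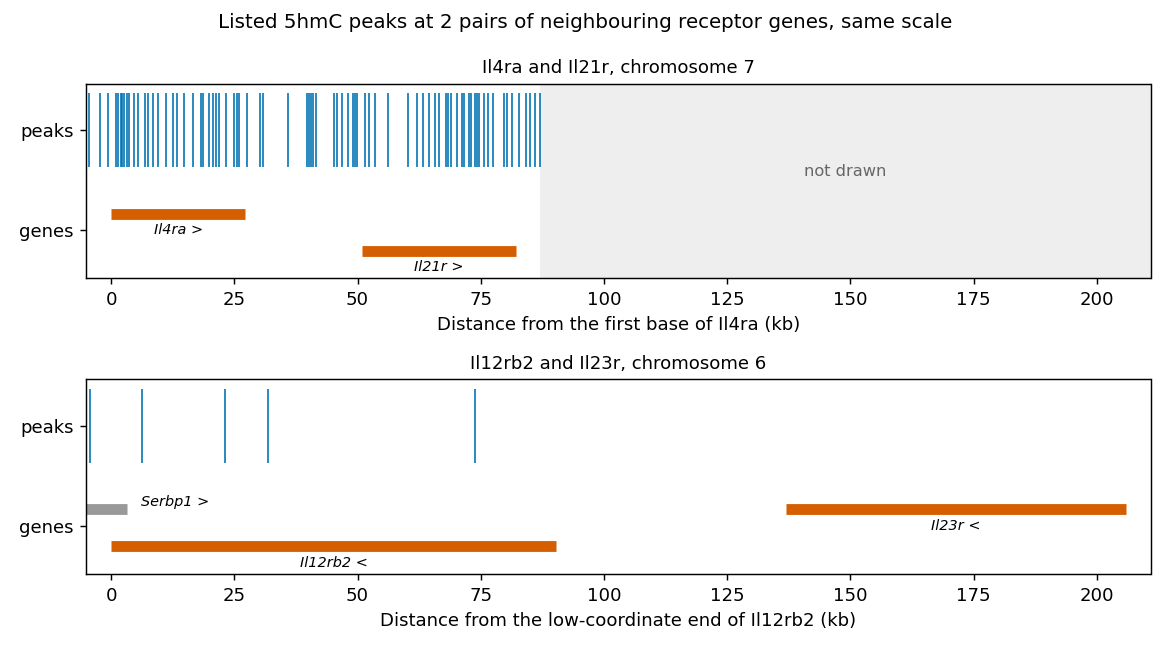
Listed peaks (blue lines) and gene spans (bars, receptor genes in orange) at both pairs on the same scale, in kb from the low-coordinate end of the first gene. The 71 peaks from Il4ra to Il21r contrast with the 4 from Il12rb2 to Il23r.

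Chains of the same receptor, or of related receptors, were also set side by side, for 10 pairs chosen after their values were seen. In 3 pairs the intervals did not overlap, and how often this holds for other pairs of genes was not computed. Il18r1 had 0.309 peaks per kb (0.169 to 0.519) and Il18rap 0.0216 (0.000546 to 0.120). Il12rb1 had 0.715 (0.424 to 1.13) and Il12rb2 0.0498 (0.0162 to 0.116). Il1r1 had 0.289 (0.195 to 0.413) and Il1rap 0.0757 (0.0391 to 0.132). In the other 7 pairs the intervals overlapped. Among them, Il2ra had 0.199 (0.103 to 0.347) and Il2rb 0.236 (0.113 to 0.434), and Il10ra 0.988 (0.639 to 1.46) and Il10rb 0.640 (0.385 to 1.00). A further pair, Il12rb1 and Il23r, was left out of the 10 because Il23r had no peak. The interval of Il23r, 0 to 0.0467 per kb, lay below that of Il12rb1. No test was made, since peaks within a gene are not replicates.

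Peaks of receptor genes were spread along the genes. Over the 29 genes with a known strand, the first of 3 equal parts of the span held 33.2% of 259 peaks (Wilson 95% interval 27.8 to 39.1%), the middle 31.3% (25.9 to 37.2%) and the last 35.5% (29.9 to 41.5%). For all 16457 genes with a strand the shares were 34.7%, 31.4% and 33.9%, inside those intervals. Single genes were uneven. Il1r2 had 10 of 17 peaks in its first part and Il18r1 7 of 11, while Il20rb had 6 of 7 and Il1rap 7 of 10 in the last part. Il4ra had 12, 6 and 10 peaks in the 3 parts and Il6ra 11, 12 and 5.

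In the 2500 bp before the gene start, receptor genes of at least 10 kb had more peaks per kb than all genes. From 2500 to 1000 bp before the start, 27 genes had 17 peaks, or 0.420 per kb (0.245 to 0.672), against 0.205 over 10549 genes. Many of the 17 came in runs, so they are not independent as the interval assumes. Il1rl2 had peaks at -2437, -2057 and -1025 bp, and Il21r at -2165, -1701 and -1245 bp. Il17rb had peaks at -2490, -1998 and -1160 bp, all within 5 kb of Chdh. Those of Il18r1 (-1408 bp) and Il17rc (-1607 bp) were shared with Il1rl1 and Il17re. In the last 1000 bp before the start they had 11, or 0.407 (0.203 to 0.729), against 0.200, so the lower bound only just exceeds that value. Of these 11, the peaks at Il1r2 (-481 bp), Il1r1 (-968 bp) and Il9r (-93 bp) lay inside the gene span, where the listed start also lies. Peaks of that kind were not counted apart for all genes. The first 1000 bp after the start held 7, or 0.259 (0.104 to 0.534), against 0.143, which was the lowest value along the profile of all genes. From 5000 to 10000 bp into the gene the densities were 0.244 (0.168 to 0.343) and 0.208. The intervals of the receptor genes held the value of all genes in every class but those from 2500 to 1000 bp and from 1000 to 0 bp before the start. At the CG-rich start of Il6ra no peak midpoint lay between -788 and 2468 bp, and at Il4ra none between -655 and 937 bp. The gap at Il17rb, with 32 CG in its window, ran from -1160 to 296 bp. At Il2ra, with 3 CG, it ran from -332 to 9174 bp, and at Il1rap, with 33 CG, from -861 to 23173 bp. Il2ra (0.199 peaks per kb) and Il1rap (0.0757) also had fewer peaks per kb than Il6ra (0.631) and Il17rb (0.836). Gap length was not set against CG count or density over the genes, and no cause of the gaps was tested.

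**Figure D4:**
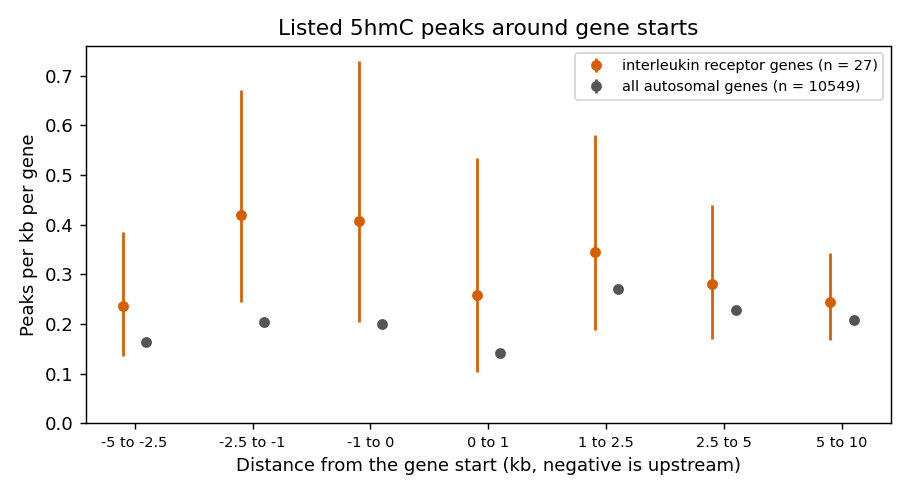
Listed peaks per kb per gene by distance from the gene start, for 27 receptor genes and 10549 autosomal genes of at least 10 kb. Bars are exact Poisson 95% intervals, hidden by the points for all genes, and the first kb after the start is lowest for all genes.

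Density at a receptor gene was often above that of its surroundings. In 25 of the 36 genes the window had more peaks per kb than the 500 kb on each side, against 46.8% of all genes. The median ratio of window to surroundings was 1.40, against 0.908 over all genes with a peak around them. The surroundings themselves had a median of 0.190 peaks per kb, against 0.137 for all genes. Across the 36 genes the densities of window and surroundings had a Spearman correlation of 0.358 and a Pearson correlation of 0.260. These points share a library, and neighbours share surroundings. Il20rb had 10.8 times the density of its surroundings, Il5ra 6.85, Il4ra 6.22, Il11ra1 5.97, Il17rb 5.85 and Il21r 5.76. The ratio of Il5ra rests on 3 peaks at the gene and 9 around it, and its own density (0.0616 per kb) was low. Il2rb, in the densest surroundings of all (0.419 per kb), had 0.563 of their density, Il22ra1 0.373, Il12rb2 0.372 and Il18rap 0.130.

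**Figure D5:**
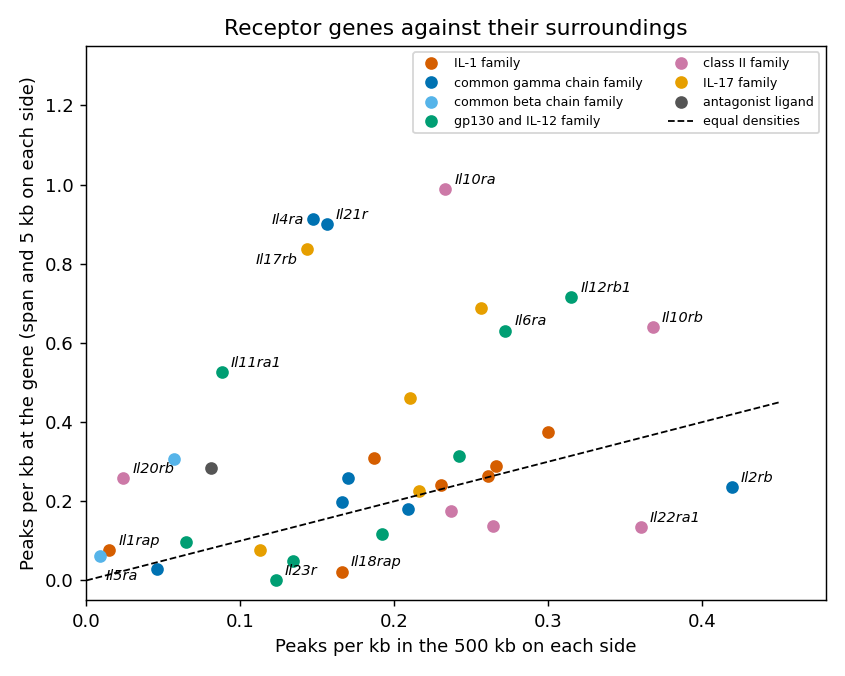
Peaks per kb at each of the 36 genes (vertical) against peaks per kb in the 500 kb on each side (horizontal), coloured by receptor family. The 25 points above the dashed line are denser than their surroundings, with Il10ra, Il4ra, Il21r and Il17rb highest, and Il2rb and Il22ra1 lie far below the line.

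Other genes of these pathways also had peaks, by the same count. Of 15 shared chains and partner receptors, 14 (93.3%) had a peak, against 76.1% of all autosomal genes. Their median was 0.515 per kb, against 0.123. The highest were the interferon gamma receptor chains Ifngr1, with 26 peaks (0.919 per kb), and Ifngr2, with 24 (0.891), and Il18bp, the IL-18 trap, with 9 (0.684). Their spans held 17, 19 and 3 of these peaks, and shared peaks were not counted apart for this list. Csf2rb, the common beta chain, had 18 and Il6st, which encodes gp130, 18, while the oncostatin M receptor gene Osmr had none. All 11 adaptors and kinases had a peak and were above the median of all genes, against 76.1% and 50% of all genes. Their median was 0.426 per kb. Irak2, a kinase downstream of IL-1 receptors, had 58 peaks (0.871 per kb), Jak3, the kinase of the common gamma chain, 16 (0.661) and Tyk2, a kinase of IL-10 and IL-12 receptors, 20 (0.536).

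The interleukin genes themselves lay near the background. Of 38 autosomal interleukin genes, 25 (65.8%) had a peak, against 76.1% of all genes. Above the median of all genes were 19, against 50% by definition, and their median was 0.119 per kb, against 0.123. The densest were Il17c, with 15 peaks (1.29 per kb), Il27, with 12 (0.749), and Il17d, with 16 (0.565). Their spans held only 2, 6 and 11 of these peaks, and the rest lay in the flanks. Peaks shared with neighbouring genes were not counted apart for the interleukin genes. None was listed for Il2, Il3, Il6, Il7, Il17f, Il19, Il21, Il22, Il31, Il1f5, Il1f6, Il1f8 and Il1f10. A ligand and its receptor could thus differ, with 0 peaks at Il6 and 34 at Il6ra, and 0 at Il21 and 37 at Il21r. At Il7 and Il7r both were low, with 0 and 1. Their median span was 6.40 kb, so the flanks make up most of the window at many of them.

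Marker genes of blood cells were counted in the same way, against the 76.1% of all genes with a peak and the 50% above the median of all genes. All 9 granulocyte and monocyte markers had 5 to 34 peaks, with a median of 0.630 per kb, and all 9 were above that median. All 5 B cell markers had 3 to 56, with a median of 0.245 per kb, and all 5 were above it. Of 6 T and NK cell markers 5 had a peak (0 to 7 each, median 0.159 per kb, none at Ncr1) and 4 were above it. All 5 erythroid markers had 1 to 8, with a median of 0.227 per kb, and 3 were above it. The median span was 4.73 kb for granulocyte and monocyte markers and 4.68 kb for erythroid markers. The flanks thus make up most of the window at many of these genes. Of 5 genes outside blood only Myh6 had a peak, 1 within 5 kb, and 0 were above it. In a bulk sample, a peak in few cells and a weak mark in many cannot be told apart. The part of each cell type in the peaks of the receptor genes was not tested.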

How the data were processed

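Sonicated DNA had its 5hmC glucosylated, biotinylated and captured before paired-end sequencing, per the labels' protocols. Per the file headers, the authors called peaks with PICS, set to 99 bp reads, 200 bp fragments, windows of 250 bp in steps of 20 bp, and at least 3 reads in a window and 10 in a region. The build is mm10, per the submitters' processing notes, and the aligner was not given in the sources used here. Each deposited list holds a chromosome, a start and an end, whose values all equal their own single-precision number.

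Each interval was counted once (14799 lines repeat an earlier line). Starts were made 1-based. A peak counted for every gene with its midpoint in the span or within 5 kb. Autosomal models that start below 3 Mb (105) were left out as scaffolds. Strand and promoters came from the RefSeq promoter table, without exons, and a gene's most upstream listed start was used. The counting was tested on simulated peaks. Python 3.11.15, pandas 2.3.3, numpy 2.4.6 and scipy 1.17.1 were used.

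Every receptor gene is named with its count. Full values are given for the 10 densest and for the gene with none, and for the other lists the 3 densest and those with none. Others named were chosen after their values were seen. The genes and lists were chosen with earlier results of these data known. Il17rel, on the list of families, was not matched in the gene table. The samples of 1 group with identical lists give no replicate spread. No test was run, and the planned score threshold could not be applied because the list has no score.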

Additional observations from a re-analysis of the deposited data

How the results depend on the processing

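With only peaks within 5 kb of a single protein-coding gene counted, the receptor median was 3.69 times that of all genes, against 2.10. By construction it removes shared peaks: the receptor median went from 0.258 to 0.188 per kb and that of all genes fell further. It took 5 receptor genes (Il11ra1, Il12rb1, Il17rb, Il17rc and Il27ra) below their intervals. Over the other settings the ratio stayed between 1.79 (background without 1467 olfactory, vomeronasal and trace amine receptor genes, chosen after seeing the data) and 2.27 (gene span alone). The genes with a peak stayed at 34 or 35, and those above the median of all genes at 25 to 27. These other settings were repeated lines kept, the span alone, flanks of 2 and 10 kb, any overlap, Il1rn left out and that background. With only peaks near a single gene counted, 34 genes had a peak and 29 were above the median of all genes. With the span alone Il18rap went to 0, since its peak lies in the flank. Leaving out the list of either sample labelled leukaemia gave the same values (ratio 2.10, 35 genes), because the lists are identical, and says nothing about stability. No paired analysis was possible because lists were analysed for the samples labelled leukaemia alone and no test was run. A stricter score threshold was not run. Depth is unknown, so a gene with no peak has none listed, which does not show that 5hmC is absent.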

Other observations

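The symbol rule also matches 5 genes of chromosome X, which were kept apart. Il2rg, the common gamma chain, Il13ra1, the partner of Il4ra in the receptor for IL-4 and IL-13, its decoy relative Il13ra2 and the neuronal genes Il1rapl1 and Il1rapl2 all had 0 listed peaks within 5 kb. The last pair spans 1375 and 1278 kb. On that chromosome 285 of the 963 protein-coding genes (29.6%) had any, while the autosomal share was 76.1%.

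Of the 441 distinct peaks at receptor genes, 37 (8.39%) were listed more than once, against 8.37% of the 153843 autosomal peaks within 5 kb of a gene. Il17rb had 10 of these 37, Il1r2 7 and Il17rc 6. Another protein-coding gene lay within 5 kb of 18.4% of the peaks, against 12.4% for all genic peaks. Peak width had a median of 65 bp at receptor genes, from 17 to 161 bp, and 65 bp over all autosomal peaks.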
